A study of Mus musculus with 12 samples.

Results

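The MYC and MAX network is the set of 10 genes named Myc, Mycn, Mycl, Max, Mxd1, Mxd3, Mxd4, Mxi1, Mnt and Mga, which were chosen by gene name. All 10 were listed in the gene tables of cultured cells (40077 genes) and of tumors (34508 genes). RNA sequencing was carried out on Myc-CaP, a mouse prostate cancer line derived from a carcinoma in which a probasin-based promoter drives a human MYC transgene in prostate epithelium, so that every library shares the transgene. Cells were treated with DMSO or with 1 µM YJ1206 for 24 hours, and subcutaneous Myc-CaP tumors grown in male FVB mice came from animals given vehicle or 100 mg/kg oral YJ1206 3 times per week. YJ1206 is a PROTAC, a molecule that brings a target protein to a ubiquitin ligase, and its targets are the transcription elongation kinases CDK12 and CDK13. Each of the 4 groups held 3 libraries. The labels do not say whether these were separate cultures or animals, so p-values measure only the spread between the libraries.

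Proteins of this network share a basic helix-loop-helix leucine zipper and bind DNA as pairs. MYC, MYCN and MYCL pair with MAX and activate genes of growth and proliferation, chiefly at E-box sequences. MXD1, MXD3, MXD4, MXI1 and MNT compete for MAX and recruit SIN3 and histone deacetylase corepressors at the same sites. MGA also pairs with MAX and works within a polycomb complex. In Myc-CaP cells MYC is the driving oncogene.

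With YJ1206, the 2 materials differed most in Myc itself. Myc transcripts rose in cells (log2 fold change 1.50 ± 0.03 SE) and fell in tumors (-0.59 ± 0.06). Max, the shared partner, and the antagonist Mxi1 rose in cells. Their tumor values were 0.03 ± 0.05 and -0.15 ± 0.11, neither past the test. Mxd4 rose and Mxd3 fell in both materials. Each change was estimated by edgeR's quasi-likelihood test from n = 3 libraries per group, with p-values adjusted over all genes tested.

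Promoter sequences of RefSeq (build GRCm38.p6, 250 bases before and 50 after each start) were available for 9 of the 10 genes, in 11 windows. The canonical E-box CACGTG, which reads the same on both strands, lay in 3 of the 11 windows, those of Mxd4, Max and Mnt. Of 32851 windows of all genes, 7.15% held it. The variant CACGCG, or CGCGTG on the other strand, lay in 2 of the 11 windows, those of Mga and Mycl, and in 9.27% of all windows. The canonical box and the variant are different words of 6 letters, so no position can match both. The sequences below belong to the 3 genes that hold the binding letters of the network's own proteins, and to Mxd3, which fell in both materials. Capitals mark CACGTG, each sequence is read 5′ to 3′ on its gene's strand, and it ends within a few bases after the more upstream of its GENCODE and RefSeq starts. Those starts lie 10 bases apart in Mxd4, 4 in Mnt, 47 in Max and 92 in Mxd3.
Mxd4 (chr5:34187715-34187960, minus strand): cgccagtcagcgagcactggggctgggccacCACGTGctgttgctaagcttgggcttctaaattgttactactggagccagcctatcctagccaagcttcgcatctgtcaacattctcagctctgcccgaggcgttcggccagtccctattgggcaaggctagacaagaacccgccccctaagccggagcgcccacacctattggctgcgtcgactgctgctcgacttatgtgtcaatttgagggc
Max (chr12:76962243-76962498, minus strand): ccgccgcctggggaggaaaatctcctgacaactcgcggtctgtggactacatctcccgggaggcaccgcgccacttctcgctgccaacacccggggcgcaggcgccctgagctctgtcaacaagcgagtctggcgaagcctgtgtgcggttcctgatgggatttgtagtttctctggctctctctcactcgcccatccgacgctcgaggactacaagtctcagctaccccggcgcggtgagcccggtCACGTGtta
Mnt (chr11:74830674-74830925, plus strand): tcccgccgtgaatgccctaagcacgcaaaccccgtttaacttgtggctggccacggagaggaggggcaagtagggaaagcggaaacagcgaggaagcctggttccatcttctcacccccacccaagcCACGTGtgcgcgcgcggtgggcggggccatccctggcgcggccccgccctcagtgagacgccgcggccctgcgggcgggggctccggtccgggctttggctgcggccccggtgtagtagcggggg
Mxd3 (chr13:55329818-55329981, minus strand): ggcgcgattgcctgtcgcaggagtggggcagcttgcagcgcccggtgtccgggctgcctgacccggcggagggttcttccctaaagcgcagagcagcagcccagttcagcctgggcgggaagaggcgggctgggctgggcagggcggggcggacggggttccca
The first letter of the E-box lay 219 bases before the RefSeq start in Mxd4, 123 bases before it in Mnt and 3 bases before it in Max. These matches describe the letters only, and binding was not measured here.

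The libraries held 13936984 to 18520071 estimated counts in cells and 15391684 to 26928447 in tumors. In cells, treatment went with the series of library numbers, and these cannot be told apart. In tumors, library 3 of each group lay between libraries 1 and 2 for nearly every gene that differed: 97.2% of 1544 genes in vehicle tumors and 96.9% of 680 genes in YJ1206 tumors (genes of at least 5 counts per 1000000 (CPM) whose libraries 1 and 2 differed by at least 0.5 on the log2 scale). Tumor values of the network genes are therefore also given for libraries 1 and 2 alone. Among epithelial markers, Cldn3 had 123.6 to 217.2 TPM (transcripts per 1000000) in cells and 182.2 to 219.9 TPM in tumors, while Epcam and Cdh1 were at most 0.479 TPM in any library. The 4 leukocyte markers summed to 119 to 335.9 TPM in vehicle tumors and 381.8 to 411.8 in YJ1206 tumors, and none was at 0. Most of that sum was Cd52 (79.5 to 300.5 TPM with vehicle and 349.4 to 367.1 with YJ1206). Coro1a was also apart (8.53 to 8.67 TPM with vehicle and 9.397 to 13.27 with YJ1206), while Ptprc and Laptm5 overlapped between the groups. Skeletal muscle markers (4 genes) summed to 583.3, 15.38 and 356.2 TPM in vehicle tumor libraries 1, 2 and 3, and to 7.125 to 9.59 in YJ1206 tumors. Fibroblast markers (6 genes) summed to 220.5 to 729.1 TPM in vehicle and 159.4 to 359 TPM in YJ1206 tumors. In cells, the fibroblast sum did not exceed 7.028 TPM and the leukocyte sum 0.4323 TPM. The part of this tissue mixture in the tumor results was not tested, and in bulk tissue fewer cells of a type and less RNA per cell cannot be told apart.

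**Figure D1:**
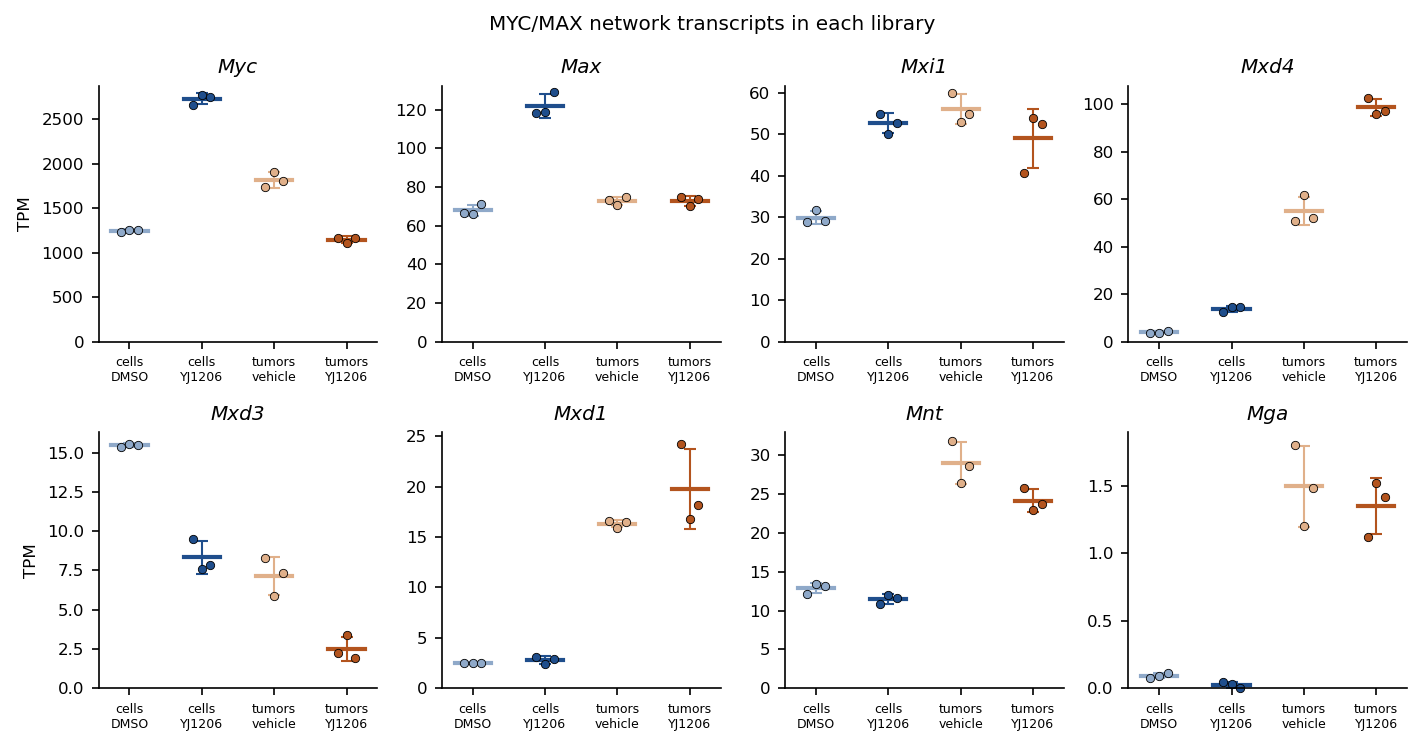
TPM of 8 network genes in each of the 12 libraries, with a separate vertical axis per gene that starts at 0; points are libraries, horizontal bars the group means and whiskers the SD (n = 3). Myc was highest in YJ1206-treated cells (2663 to 2773 TPM), and Mxd4 was highest in YJ1206-treated tumors (95.97 to 102.8 TPM).

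Myc (chr15:61985391-61990374, plus strand, GRCm38, GENCODE vM21) was the dominant member in every library. In DMSO cells its levels were 1233, 1260 and 1252 TPM, and in YJ1206 cells 2663, 2773 and 2753 TPM. The groups did not overlap and every treated library was the higher. In the edgeR fit of counts after TMM scaling, Myc rose by a log2 fold change of 1.50 (95% CI 1.44 to 1.55), or 2.82-fold. The adjusted p was 3.23e-26, and only 3.61% of the 11826 genes tested in cells rose further in that fit. On the log2(TPM + 1) scale the Myc value was smaller, at 1.13. By TPM, Myc moved from rank 123 to 125 among all genes of a DMSO library to rank 42 to 44 in a YJ1206 library.

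In vehicle tumors Myc stood at 1733, 1908 and 1805 TPM, and in YJ1206 tumors at 1168, 1107 and 1167 TPM. Again the groups did not overlap, but here every treated library was the lower. Myc fell by 0.59 on the log2 scale (95% CI -0.74 to -0.44), or 1.505-fold, with an adjusted p of 0.00167. With tumor libraries 1 and 2 alone the log2 fold change was -0.61 and the adjusted p 0.134. The tumor effect differed from the cell effect by -2.12 (95% CI -2.26 to -1.97), with an adjusted p of 8.81e-10 for the interaction in a fit over all 12 libraries. Set side by side, the 4 groups were ordered YJ1206 cells (2729 ± 58.3 TPM, mean ± SD, n = 3), vehicle tumors (1815 ± 87.8), DMSO cells (1248 ± 14.01) and YJ1206 tumors (1147 ± 35.3). The cell and tumor tables were made with different annotation versions, and their labels name different RNA fractions (polyA RNA for cells and total RNA for tumors), so levels were not tested across them.

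A mouse reference cannot separate the human transgene from the mouse gene where their sequences agree, and the length of the transcripts behind the Myc estimate was therefore examined. The ratio of counts to TPM gives the mean length of the transcripts that received a gene's reads, once it is scaled on genes with a single annotated transcript. On those genes it came within 10% of the annotated length in 94.4% to 97.9% of cases per library. In the 6 tumor libraries, the mean Myc length was 1362 to 1369 bases. The transcripts Myc-208 (1362 bases) and Myc-207 (1365 bases) have about that length, while the full-length Myc-201 has 2338 bases and Myc-203 has 381. A mean of this size can also come from a mix of shorter and longer transcripts, so it does not identify any of them. In the 6 cell libraries the mean Myc length was 1135 to 1197 bases. It did not move with treatment in tumors, where the ranges overlapped, and in cells it was 1135 to 1174 bases with DMSO and 1183 to 1197 with YJ1206. Reads from the transgene and from the mouse gene cannot be told apart in these tables.

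Mycn (chr12:12936093-12941914, minus strand) and Mycl (chr4:122995652-123002485, plus strand) encode the MYC paralogs best known from neural and lung tumors. Both had 0 counts in all 6 cell libraries, which allows at most 3 counts, or 0.162 to 0.215 CPM, in a library (counting error only). In tumors Mycn had 7, 4 and 2 counts with vehicle and 5, 13 and 9 with YJ1206. Mycl had 4, 5 and 6 counts with vehicle and 1, 5 and 4 with YJ1206. Neither gene passed the filter on low counts, so a change was not tested, and the other 8 genes were.

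Max (chr12:76937269-76962201, minus strand) encodes the obligate partner of all the other members. Its levels were 66.38, 66.06 and 71.36 TPM in DMSO cells and 118.3, 118.6 and 129.1 TPM in YJ1206 cells. The groups were well apart. The log2 fold change was 1.12 ± 0.04 (adjusted p = 8.26e-20). In tumors the levels were 73.17, 70.72 and 74.79 TPM with vehicle and 74.85, 70.14 and 73.62 TPM with YJ1206, which overlapped. The tumor value was 0.03 (95% CI -0.09 to 0.15, adjusted p = 0.696), and libraries 1 and 2 alone gave 0.03 (adjusted p = 0.883). The tumor effect was lower than the cell effect (interaction -1.12 ± 0.06, adjusted p = 1.08e-08). In cells, the ratio of Myc TPM to Max TPM was 17.55 to 19.07 with DMSO and 21.32 to 23.37 with YJ1206. In tumors the ratio was 23.69 to 26.98 with vehicle and 15.61 to 15.85 with YJ1206. The Myc TPM can hold transgene reads and rests on the mean lengths given above, which differ between cells and tumors. These ratios are therefore not numbers of mouse Myc transcripts per Max transcript.

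**Figure D2:**
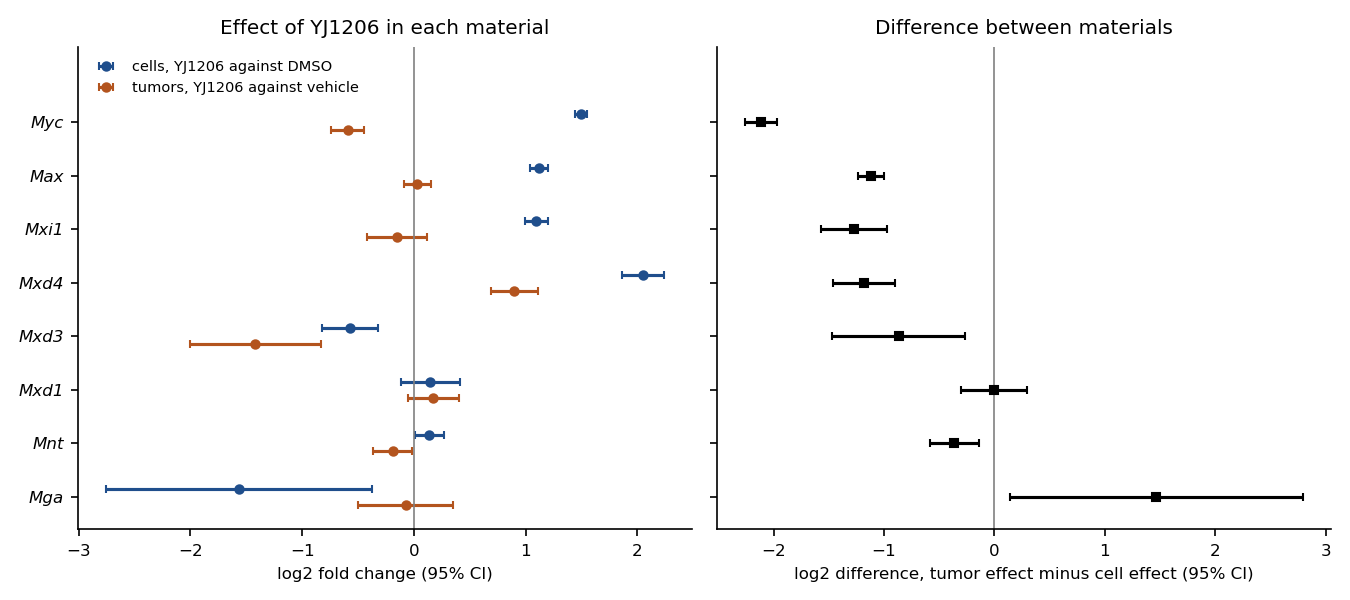
Left, log2 fold change of 8 network genes with YJ1206 in cells (blue) and in tumors (brown). Right, the difference between both effects. Bars are 95% confidence intervals of the edgeR fit. Myc lies at 1.50 in cells and -0.59 in tumors, and the intervals of Mxd1 include 0 in both panels.

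The MXD family and MXI1 are the classical antagonists of MYC. Mxd4 (chr5:34173883-34187720, minus strand), a member associated with differentiating and quiescent cells, had 3.68, 3.92 and 4.70 TPM in DMSO cells and 12.42, 14.55 and 14.70 TPM in YJ1206 cells. The log2 fold change of 2.05 ± 0.09 (adjusted p = 2.97e-17) was the largest among the 8 genes tested in cells. Tumors held 50.93, 62.04 and 52.35 TPM with vehicle and 102.8, 95.97 and 97.39 TPM with YJ1206. It was thus higher in every treated library of both materials. In tumors it rose by a log2 fold change of 0.90 ± 0.09 (adjusted p = 0.00134), and with libraries 1 and 2 alone the value was 0.87 (adjusted p = 0.134). The rise was smaller in tumors than in cells (interaction -1.18 ± 0.13, adjusted p = 6.97e-06).

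Mxi1 (chr19:53310518-53375810, plus strand), which encodes MAX interactor 1, had 28.92, 31.75 and 29.12 TPM in DMSO cells and 55.01, 50.19 and 52.78 TPM in YJ1206 cells. It rose by a log2 fold change of 1.09 ± 0.05 (adjusted p = 5.22e-17). Levels in tumors were 60.07, 53.00 and 54.99 TPM with vehicle and 40.72, 53.85 and 52.46 TPM with YJ1206. These overlapped, with treated tumor library 1 the lowest. The tumor value was -0.15 (95% CI -0.42 to 0.12, adjusted p = 0.382). The interaction was -1.27 ± 0.14 (adjusted p = 5.97e-06).

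Mxd3 (chr13:55325168-55329823, minus strand), the family member tied to dividing cells, had 15.35, 15.57 and 15.49 TPM in DMSO cells and 9.53, 7.61 and 7.83 TPM in YJ1206 cells. It fell by 0.57 on the log2 scale (SE 0.12, adjusted p = 0.000133). Tumor levels were 8.26, 5.87 and 7.34 TPM with vehicle and 2.22, 3.37 and 1.93 TPM with YJ1206. In both materials the groups were apart, although tumor counts were as few as 28 to 57 with YJ1206. The tumor log2 fold change was -1.42 ± 0.25 (adjusted p = 0.00693), against -1.25 (adjusted p = 0.152) with libraries 1 and 2 alone. The interaction of -0.87 ± 0.28 passed the test (adjusted p = 0.0207), but not with tumor libraries 1 and 2 alone (-0.70, adjusted p = 0.104). Mxd3 overlaps Prelid1 on the opposite strand.

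Mxd1 (chr6:86647042-86669161, minus strand), the founding MXD gene, had 2.52, 2.54 and 2.54 TPM in DMSO cells and 3.14, 2.37 and 2.93 TPM in YJ1206 cells. The TPM groups overlapped, while CPM after TMM scaling did not (6.82 to 6.92 with DMSO and 6.998 to 7.925 with YJ1206), and the log2 fold change was 0.15 (95% CI -0.11 to 0.41, adjusted p = 0.296). Tumors gave 16.56, 15.91 and 16.48 TPM with vehicle and 24.27, 16.81 and 18.14 TPM with YJ1206. Here the TPM groups were apart and the CPM groups overlapped, and the log2 fold change was 0.18 (95% CI -0.05 to 0.40, adjusted p = 0.223). The mean length of its transcripts was 4665 to 4666 bases in DMSO cells and 3373 to 4666 bases in YJ1206 cells. In tumors it was 2992 bases in YJ1206 library 1, the library with the highest TPM, and 3424 to 4113 bases in the other 5.

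Among these 4 antagonists the share of Mxd4 was higher with YJ1206 in both materials, and that of Mxi1 was higher in cells and lower in tumors. The share of Mxd4 in their summed TPM was 7.29% to 9.06% in DMSO cells and 15.5% to 19.5% in YJ1206 cells. In tumors the share was 37.5% to 45.3% with vehicle and 56.5% to 60.5% with YJ1206. Mxi1 made up 56.2% to 59.0% in DMSO cells and 67.2% to 68.7% in YJ1206 cells, and 38.7% to 44.2% in vehicle tumors and 23.95% to 31.7% in YJ1206 tumors. The share of Mxd3 was lower with YJ1206 in both, from 28.95% to 30.42% in DMSO cells to 10% to 11.9% in YJ1206 cells, and from 4.289% to 6.082% to 1.137% to 1.982% in tumors. The ratio of Myc TPM to antagonist TPM (the 4 genes, Mnt and Mga summed) was 18.74 to 19.66 in DMSO cells and 29.27 to 31.94 in YJ1206 cells. It was 10.23 to 11.6 in vehicle tumors and 5.691 to 5.982 in YJ1206 tumors, with the same limit on the Myc TPM as for Max. No groups compared overlapped in these shares and ratios, which are descriptions built from the genes above and were not tested.

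**Figure D3:**
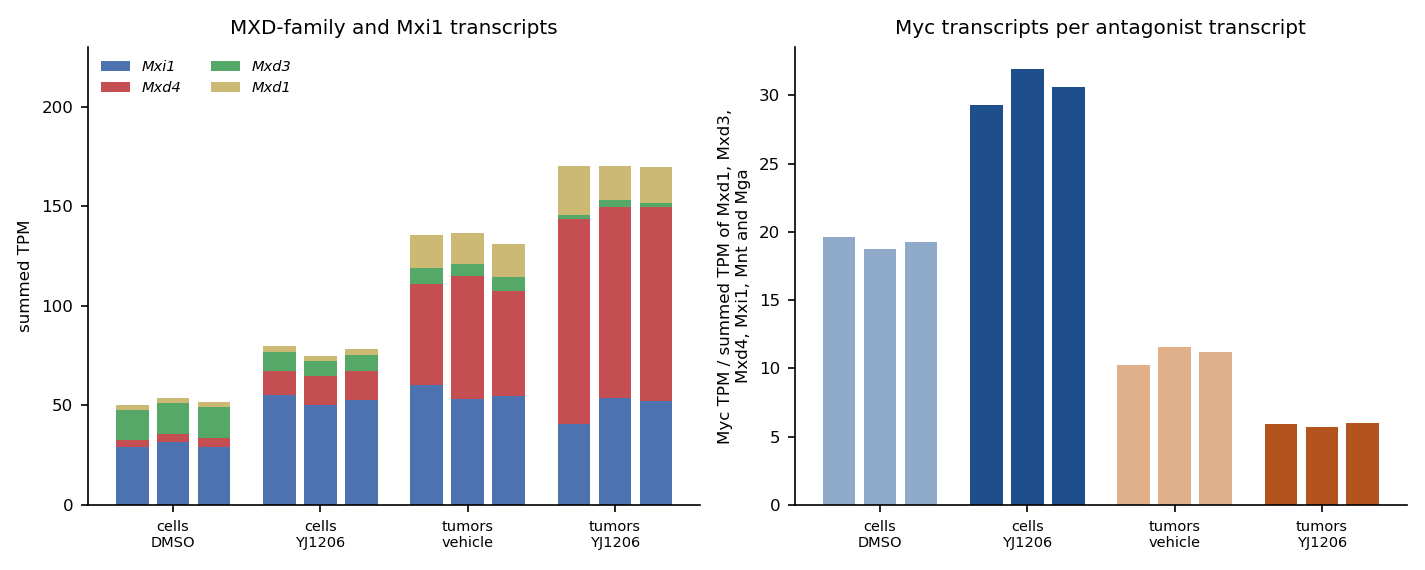
Left, stacked TPM of the 4 MXD-family antagonists in each library. Right, Myc TPM divided by the summed TPM of Mxd1, Mxd3, Mxd4, Mxi1, Mnt and Mga. Each bar is 1 library, with 3 per group. The ratio lies at 29.27 to 31.94 in YJ1206 cells and at 5.691 to 5.982 in YJ1206 tumors.

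Mnt (chr11:74830920-74845725, plus strand) encodes a widely expressed MAX-dependent repressor. It had 12.15, 13.37 and 13.17 TPM in DMSO cells and 10.86, 12.03 and 11.64 TPM in YJ1206 cells. The groups overlapped in CPM after TMM scaling, while in TPM the treated libraries lay just below the controls. The log2 fold change of 0.14 ± 0.06 passed the test narrowly (adjusted p = 0.0494), but it turned to -0.05 with total counts and to -0.15 on the log2(TPM + 1) scale, neither past the test, so the data gave it no direction. In tumors Mnt had 31.89, 26.46 and 28.63 TPM with vehicle and 25.82, 22.92 and 23.73 TPM with YJ1206. Every treated tumor library lay below every vehicle library. The log2 fold change was -0.19 ± 0.08 and missed the threshold (adjusted p = 0.103). The interaction was -0.36 ± 0.10 (adjusted p = 0.0103), but -0.14 (adjusted p = 0.286) with total counts.

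Mga (chr2:119897228-119969581, plus strand) encodes the largest protein of the network, the MAX partner in the polycomb complex PRC1.6. It had 12, 14 and 18 estimated counts in DMSO cells and 6, 4 and 0 in YJ1206 cells, or at most 0.11 TPM. In tumors it had 346, 287 and 199 counts with vehicle and 182, 317 and 253 with YJ1206, or 1.12 to 1.81 TPM. The fitted fall in cells (log2 fold change -1.57 ± 0.58, adjusted p = 0.0168) rested on those few counts. Without YJ1206 library 3, which had no count, the value was -1.01 and the adjusted p 0.104. In tumors the groups overlapped, and the value was -0.07 (95% CI -0.50 to 0.35, adjusted p = 0.802).

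Of the 8 genes tested, 7 passed the test in cells, 5 of them higher and 2 lower with YJ1206. All genes of the table set the scale for that count. In cells 76.1% of 11826 genes passed, 37.8% higher and 38.3% lower. In tumors 3 of 8 passed, 1 higher and 2 lower, against 26.8% of 15558 genes, 11.9% higher and 14.9% lower. With tumor libraries 1 and 2 alone, 0 of the 8 passed by edgeR (3 at an unadjusted p under 0.05), and 1 of all genes did (3068 at an unadjusted p under 0.05). Beside the values given above, that fit put Mxi1 at -0.20, Mxd1 at 0.17, Mnt at -0.19 and Mga at -0.13. The median log2 fold change of the 8 genes was 0.62 in cells and -0.11 in tumors, beside -0.02 and 0.01 for all genes. In the interaction 6 of 8 passed, each with a lower effect in tumors than in cells. Among all 15423 genes 46.8% passed in either direction, and 44.5% of those passing had a higher effect in tumors. With tumor libraries 1 and 2 alone, the interaction of Myc was -2.14, Max -1.12, Mxi1 -1.32, Mxd4 -1.21 and Mnt -0.37, each past the test.

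The scaling mattered in cells. The median of all genes was -0.02 after TMM scaling, -0.20 with total counts and -0.24 on the log2(TPM + 1) scale, and 49.7%, 36.1% and 29.2% of the genes passing were higher with YJ1206. Myc, Max, Mxi1 and Mxd4 rose and Mxd3 fell under each of these scalings. Relative to the median of all genes, Myc stood at 1.51, 1.51 and 1.37, and Mxd3 at -0.56, -0.56 and -0.58. In the interaction the share of higher calls was 44.5% after TMM scaling and 61.5% with total counts, where Mxd3 and Mnt did not pass.

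**Figure D4:**
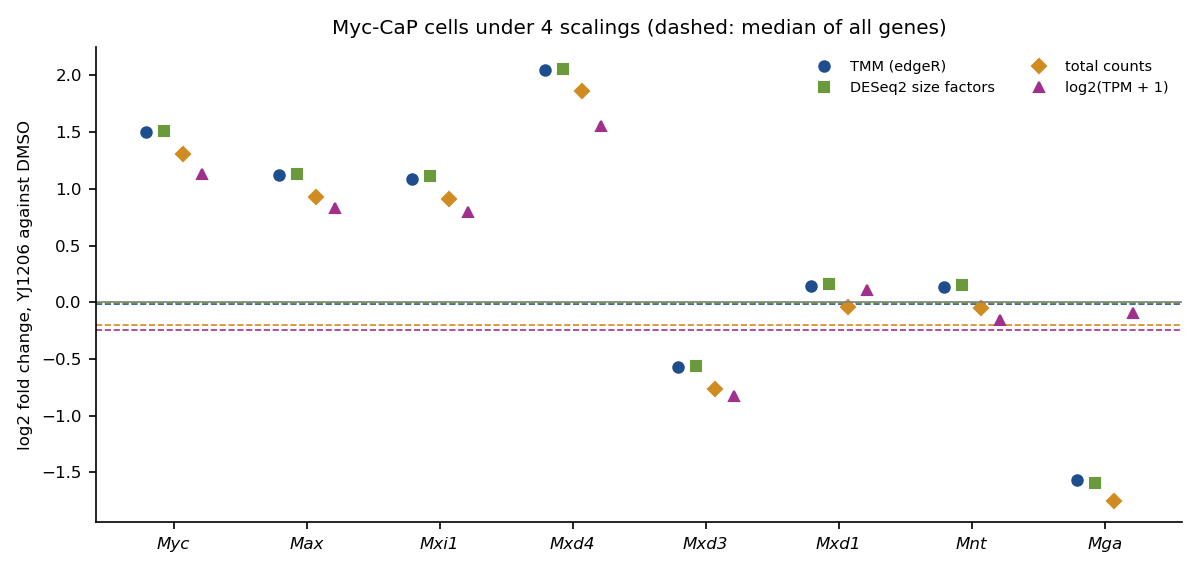
Log2 fold change of 8 network genes in cells under 4 scalings, with dashed lines at the median of all genes under each. Mnt lies at 0.14 after TMM scaling and at -0.15 on the log2(TPM + 1) scale, while Myc stays between 1.13 and 1.51.

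The genes around the network were described by lists. The counts below are to be read beside the shares of all genes that passed. Those were 37.8% higher and 38.3% lower in cells, and 11.9% higher and 14.9% lower in tumors. Of 21 MYC cofactors (histone acetyltransferase, chromatin and elongation factors), 11 rose and 9 fell in cells, with a median log2 fold change of 0.42. Zbtb17, which encodes the MYC partner MIZ1, rose from 17.7 ± 0.81 to 43.4 ± 0.74 CPM (log2 fold change 1.29, adjusted p = 8.06e-16), and Kat5, an acetyltransferase gene, fell from 73.3 ± 2.93 to 45.0 ± 0.78 (-0.70, adjusted p = 5.59e-13). On the log2(TPM + 1) scale the cell counts were 9 higher and 10 lower, with a median of 0.050 beside -0.24 for all genes. In tumors 5 of the 21 fell (14.9% of all genes did), with a median of -0.17, and 0 rose by edgeR (0 at an unadjusted p under 0.05, and 0 by DESeq2). Ruvbl2, which encodes a helicase of the acetyltransferase complexes, fell by 0.51 on the log2 scale (adjusted p = 0.0133).

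Of 12 corepressor genes that serve MXD and MNT proteins, 8 rose and 3 fell in cells (median 0.61, or 0.29 on the log2(TPM + 1) scale). Sap18, a subunit gene of the SIN3 complex, rose from 32.7 ± 1.57 to 69.3 ± 1.55 CPM (1.08, adjusted p = 2.79e-16). In tumors 1 rose and 3 fell (median -0.19). These were led by Sin3b, a scaffold gene of the complex, at 0.33 (adjusted p = 0.0150) and Sap30 at -0.72 (adjusted p = 0.00276).

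For the partners of MGA in PRC1.6 (12 genes, 11 tested in cells), 8 rose and 2 fell in cells, with a median of 0.68 (0.35 on the log2(TPM + 1) scale). Pcgf6, whose protein defines this complex, rose from 57.5 ± 0.40 to 103 ± 3.07 CPM (0.85, adjusted p = 2.87e-16), while Ring1 fell by 0.97 (adjusted p = 1.96e-06). In tumors 1 rose and 6 fell (median -0.36), with Tfdp2 at 0.26 (adjusted p = 0.0193) and L3mbtl2 at -0.68 (adjusted p = 0.00243).

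The MLX arm (3 genes) is a parallel network that senses glucose. In cells 2 were tested and Mlx fell by 0.55 (adjusted p = 5.19e-07), and in tumors 0 of 3 passed by edgeR (1 at an unadjusted p under 0.05, and 0 by DESeq2). Among 20 genes of MYC protein stability, 9 rose and 9 fell of 19 tested in cells, beside 37.8% and 38.3% of all genes. Pim2 rose (0.97, adjusted p = 9.93e-09) and Pim1 fell (-0.96, adjusted p = 2.09e-14), both kinases that phosphorylate MYC. In tumors 2 rose and 7 fell. Fbxw7, the gene of the ubiquitin ligase subunit that recognizes phosphorylated MYC, rose by 0.38 (adjusted p = 0.00690), and in cells it had a log2 fold change of -0.55 (adjusted p = 1.00e-06). Plk1, a mitotic kinase gene, fell by 1.65 in tumors (adjusted p = 0.0138).

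Among 10 genes of Myc mRNA binding and the Myc locus, 7 rose and 1 fell in cells. Zfp36l1, whose protein promotes decay of AU-rich mRNAs, rose by 1.40 (adjusted p = 3.14e-19), and Tia1 fell by 0.96 (adjusted p = 1.85e-17). The neighbouring noncoding gene Pvt1 had a value of -0.19 in cells (adjusted p = 0.21). In tumors 1 of 9 rose and 5 fell. Igf2bp1, a stabilizer of Myc mRNA, rose from 5.14 ± 1.09 to 8.51 ± 1.69 CPM (0.72, adjusted p = 0.0401). Zfp36 fell from 98.6 ± 38.4 to 42.2 ± 2.99 CPM (-1.23, adjusted p = 0.0131), with vehicle libraries that were widely spread. On the log2(TPM + 1) scale the cell counts of this list were 3 higher and 3 lower.

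MYC-activated genes (45 genes of ribosome production, nucleotide synthesis, metabolism and the cell cycle) mostly fell in tumors. There 32 of 45 were lower and 1 higher, with a median of -0.35 beside 0.01 for all genes. Of all genes in tumors, 14.9% were lower and 11.9% higher. Umps, an enzyme gene of pyrimidine synthesis, fell from 78.0 ± 9.10 to 42.9 ± 0.50 CPM (-0.86, adjusted p = 0.00164). Ccnd2, the gene of cyclin D2, was the one that rose (0.97, adjusted p = 0.0138). In cells 29 of 44 tested were higher and 11 lower (median 0.24), but 18 higher and 21 lower on the log2(TPM + 1) scale, where the median was -0.09 beside -0.24 for all genes. Phb2, a gene of the prohibitin family, rose from 254 ± 4.32 to 848 ± 19.7 CPM (1.74, adjusted p = 2.38e-27), and Dnph1 fell by 1.35 (adjusted p = 5.45e-14). The effect was lower in tumors than in cells for 33 of the 45 and higher for 3 (27 and 9 on the log2(TPM + 1) scale). Of all genes, 46.8% passed the interaction in either direction. Among the genes that passed, 44.5% had a higher effect in tumors after TMM scaling. On the log2(TPM + 1) scale that share was 63.8%.

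Of 9 MYC-repressed genes, 4 rose and 2 fell of 7 tested in cells. Cdkn1a, the gene of the cell cycle inhibitor p21, rose from 7.55 ± 0.34 to 26.6 ± 1.61 CPM (1.82, adjusted p = 6.01e-16). In tumors 1 rose and 1 fell. Cebpa fell in both materials, by 0.14 in cells (adjusted p = 0.0161) and by 0.46 in tumors (adjusted p = 0.00961). The one that rose in tumors, Cdkn2b, averaged under 5 CPM and had a value of 1.21 (adjusted p = 0.00361). With tumor libraries 1 and 2 alone, 0 of the 130 listed genes tested passed by edgeR (50 at an unadjusted p under 0.05), at list medians between -0.36 and 0.04.

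**Figure D5:**
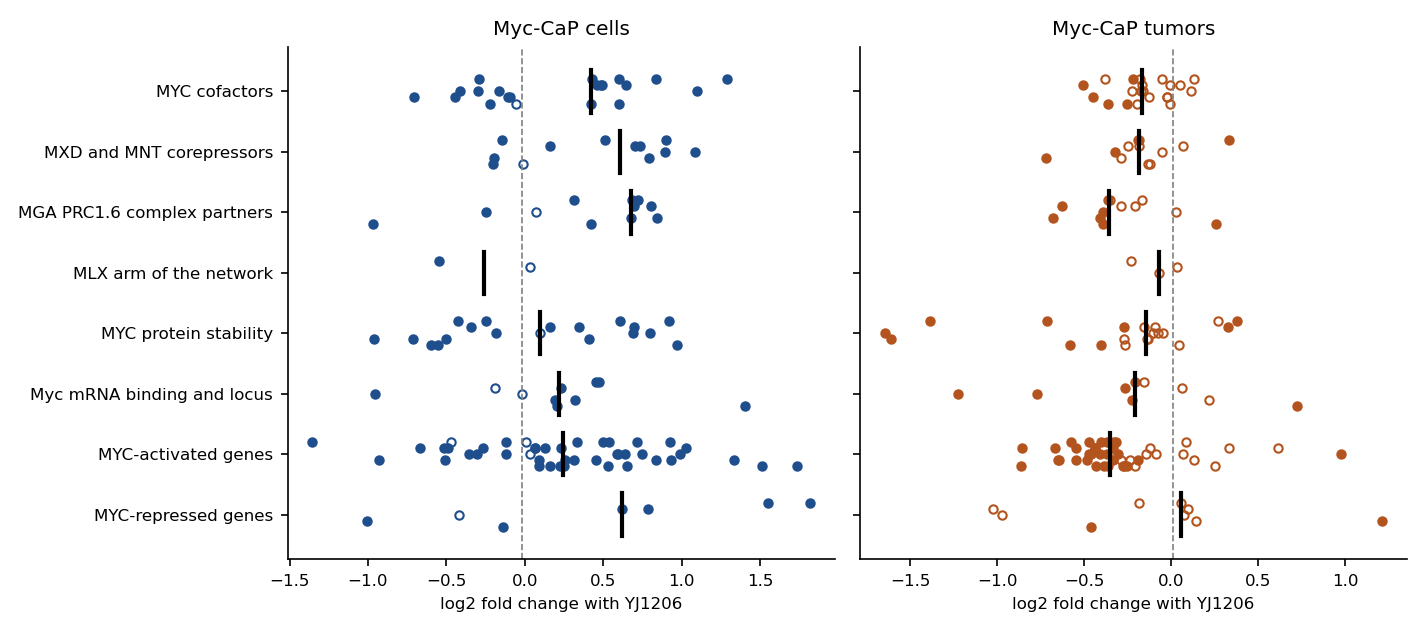
Log2 fold change of the genes of 8 lists with YJ1206 in cells (left) and tumors (right). Filled points passed the test, open points did not, black bars are list medians and the dashed line is the median of all genes. The median of MYC-activated genes lies at 0.24 in cells and -0.35 in tumors.

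The genes whose levels tracked Myc most closely over the 12 libraries were Rrp1 (Pearson r = 0.981 of log2(TPM + 1)), Ier5l (0.974), Rnf2 (0.963), Pmaip1 (0.963) and Wdr33 (0.959), out of 10663 genes of at least 1 TPM on average in each material. The libraries come in 4 groups that share material and treatment, so these values are descriptions. Rrp1, a ribosome biogenesis gene, had 165.5 to 175.6 TPM in DMSO cells and 228.8 to 232.3 TPM in YJ1206 cells. In tumors it had 191.9 to 196 TPM with vehicle and 151.7 to 163.4 TPM with YJ1206. Rnf2 encodes the ubiquitin ligase subunit of PRC1.6 and also stands in the list of MGA partners.

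The genes of the degraded kinases were also read at the RNA level. A degrader acts on protein, so these values cannot check the labels. Cdk12 rose in cells (0.58 ± 0.04, adjusted p = 2.26e-14) and in tumors (0.35 ± 0.07, adjusted p = 0.0108). The tumor call was lost with libraries 1 and 2 alone (0.34, adjusted p = 0.219) and without vehicle library 3 (0.32, adjusted p = 0.0635). Cdk13 had values of 0.03 ± 0.04 in cells and 0.06 ± 0.06 in tumors, neither past the test (adjusted p = 0.550 and 0.465). In cells it was lower and past the test with total counts (-0.16, adjusted p = 0.000612) and on the log2(TPM + 1) scale (-0.28, adjusted p = 0.00322), so the data gave it no direction. With tumor libraries 1 and 2 alone its value was 0.079 (adjusted p = 0.728).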

How the data were processed

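RNA was measured by paired-end sequencing in 6 libraries of Myc-CaP cells and 6 of Myc-CaP tumors. The protocol describes removal of ribosomal RNA for all of them, while the labels name polyA RNA for cells and total RNA for tumors. Preparation and material cannot be told apart. The submitters' processing notes name kallisto and the build GRCm38/mm10 without versions, and the annotation release is not given in the sources used here. The authors deposited fractional estimated counts for each gene, and TPM (transcripts per 1000000), which adjust for transcript length and sum to 1000000 in a library. The cell and tumor tables carried different annotation versions of Myc.

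Estimated counts were rounded to whole numbers and analysed in R 4.3.3 with edgeR 4.0.16 (filterByExpr, TMM scaling, quasi-likelihood test). p-values were adjusted by the Benjamini-Hochberg method over all genes tested, at a threshold of 0.05. Cells and tumors were fitted separately. The difference of effects was an interaction term over all 12 libraries, with the 34507 genes of both tables joined on Ensembl identifiers. The design had assumed whole counts. Log2 fold changes are on the TMM scale, and gene coordinates are those of GENCODE vM21. No column was left unmapped. Whether counting used strand is not given in the sources used here, so reads of Max, Mxd1, Mxd3, Mxd4 and Mxi1 that fall in overlapping genes cannot be assigned with certainty.

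Alternatives were DESeq2 1.42.0, total counts, no filter, limma 3.58.1 on log2(TPM + 1) and log2(TPM + 0.1), the replicate number as a block, leaving out each library, and tumor libraries 1 and 2 alone. DESeq2 also used the rounded counts. The pipeline was tested on simulated data. No replicate files held identical values.

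The genes named were the 10 members, Cdk12, Cdk13, from each list the passing gene with the largest rise and the largest fall among those of at least 5 CPM (counts per 1000000), and the 5 genes most like Myc. Some results that this rule would name are not reported here. A gene named beside these (Cdkn2b, Pvt1, Fbxw7 in cells) was chosen after its values were seen. The members and the lists were chosen with earlier results of these data known. With 3 libraries per group, intervals for counts near 0 cover counting error only.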

Additional observations from a re-analysis of the deposited data

Results flagged for a closer look

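The effect of YJ1206 differed between tumors and cells for 6 of the 8 network genes tested, by the interaction term of the edgeR fit over 12 libraries, against 46.8% of 15423 genes. The tumor effect minus the cell effect on the log2 scale was -2.12 for Myc, -1.12 for Max, -0.87 for Mxd3, -1.18 for Mxd4, -1.27 for Mxi1 and -0.36 for Mnt. For Myc the sign itself differed, with every treated cell library above the DMSO libraries and every treated tumor library below the vehicle libraries. With tumor libraries 1 and 2 alone, 0 of the 8 genes passed in tumors by edgeR (3 at an unadjusted p under 0.05), while the Myc interaction still passed. Max and Mxi1 rose in cells and did not pass the test in tumors. For Mxd4 a rise and for Mxd3 a fall was seen in both materials, of unequal size. The Mnt value went with a cell effect whose direction depended on the scaling.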

How the results depend on the processing

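In cells, 5 to 7 of the 8 network genes passed under every alternative run, and Myc, Max, Mxi1, Mxd4 and Mxd3 kept direction and call under each. Mnt reversed to -0.047 with total counts and to -0.15 and -0.16 on log2(TPM + 1) and log2(TPM + 0.1), and Mxd1 to -0.039 with total counts. The Mnt call was also lost by DESeq2, with no filter, and without DMSO library 1 or 3 or YJ1206 library 2 or 3. The Mga call was lost on both TPM scales and without YJ1206 library 3. Without DMSO library 2 or 3, Mga did not pass the count filter. In tumors 3 or 4 genes passed under every alternative except libraries 1 and 2 alone, where 0 of 8 and 1 of all genes passed. Leaving out each library gave 5 to 7 genes in cells (8622 to 8824 of all genes), 3 or 4 in tumors (1877 to 5724 of all genes) and 5 to 7 in the interaction (6636 to 7677). The lowest tumor counts of all genes were 1938 without vehicle library 3, 2739 without YJ1206 library 2 and 1877 without YJ1206 library 3. The fourth tumor gene was Mnt, which passed without vehicle library 2 (-0.24, adjusted p = 0.0375). Tumor Max was -0.0006 on both TPM scales, and tumor Mga, -0.07 with all libraries, ranged from -0.20 to 0.076 when each was left out, with 0.058 in the absence of YJ1206 library 1. In the interaction, Mxd3 missed the threshold with total counts, log2(TPM + 1), the block, tumor libraries 1 and 2 alone, and without YJ1206 cell library 1 or YJ1206 tumor library 1 or 3, at -0.40 to -0.87. Mnt missed it with total counts and log2(TPM + 1). Mga passed by DESeq2 (1.45), with total counts (1.68), and without YJ1206 cell library 1 (2.15), vehicle tumor library 1 (1.62) or YJ1206 tumor library 1 (1.604).

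The interaction of Mxd1, near 0 throughout, changed sign to 0.22 with total counts, 0.14 on log2(TPM + 1), 0.0004 with the block, and, when single libraries were left out (range -0.084 to 0.069), to 0.0056 for DMSO cell library 1, 0.017 and 0.021 for YJ1206 cell libraries 1 and 2, 0.069 for vehicle tumor library 1 and 0.046 for YJ1206 tumor library 2. Cdk13 reversed in cells to -0.16 with total counts and -0.28 and -0.29 on both TPM scales (all past the test), and to -0.0041 without DMSO library 3 (up to 0.039 without YJ1206 library 1), and in tumors to -0.10 on both TPM scales. The tumor call of Cdk12 was lost with libraries 1 and 2 alone and without vehicle library 3. The causes were not tested. The same replicate number did not pair libraries (correlations of deviations 0.001 to 0.046). With the replicate block 7 network genes passed in cells, 3 in tumors and 5 in the interaction, and 8905, 3477 and 6903 of all genes. Depth limits Mga in cells and Mycn and Mycl throughout.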
